A study of Microtus ochrogaster with 23 samples.

Results

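Strand-discordant CpG pairs are CpG dinucleotides whose cytosines on opposite DNA strands carried clearly different methylation levels. They were looked for in reduced representation bisulfite sequencing (RRBS) of the hippocampal dentate gyrus (DG) of 23 prairie voles. A pair is a cytosine on the plus strand, at the left position, together with the cytosine of the minus strand 1 base to its right. Positions that followed each other on a chromosome were paired from the left, chromosome X was left out, and a pair was kept where both strands had at least 10 reads in the same 12 or more animals. The strand difference of an animal is the level of the plus strand minus that of the minus strand, in percentage points. A pair was called strand-discordant where the mean of this difference over the animals was at least 40 points in either direction. This held for 168 of 396673 kept pairs, or 4.24 per 10000. The members were thus chosen on their own measured levels, and the size of their differences is a description of what was selected.

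A CpG reads the same on both strands, and in mammals both of its cytosines usually carry the same state. When DNA is copied, the new strand starts without methyl groups, UHRF1 binds the hemimethylated CpG and DNMT1 then methylates the new strand, which keeps the state symmetric. A CpG methylated on 1 strand only is called hemimethylated and is mostly a passing state after replication, although some sites keep it for longer. The DG is a region where granule neurons continue to be born in adult rodents, so that dividing progenitors and long-lived neurons lie side by side.

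RRBS cuts DNA with MspI and reads the ends of the fragments after bisulfite has turned unmethylated cytosines into bases read as T. The level is the percentage of reads at a cytosine that still show C, and a base read as T counts as unmethylated whatever base the DNA of the animal had there. The strands of a CpG were read from separate molecules. A strand difference therefore compares shares of reads, and it does not say whether both strands of 1 molecule differed. A DG punch holds many cell types, so that full methylation of a fraction of the cells and partial methylation of each cell cannot be told apart.

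The voles were wild-type adults from a laboratory colony, and each library was made from 100 ng of DNA of 1 animal. The 6 “Attacker” and 6 “Parental” animals were virgin males grouped by whether they attacked or cared for an unfamiliar pup. The 5 “Father” and 6 “Mother” animals were pair-bonded males and females housed with their young, so that “Father” and “Mother” differ in sex, and the virgin males and “Father” animals differ in housing and mating. All animals met a pup before the DG was punched. A library held 64896224 to 129376223 calls, each call being 1 read at 1 cytosine. No DG marker can be read from these levels, so the tissue label was not tested.

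Kept pairs agreed closely between strands as a whole, and the 168 members formed the outer tails. Over all kept pairs, the size of the mean strand difference had a median of 0.667 points, a 95th percentile of 6.71 points and a 99.9th percentile of 31.6 points. At least 10 points were reached by 10753 pairs, 20 points by 1930 and 30 points by 490. Among the members, 90 reached 50 points, 29 reached 70 points and 2 reached 90 points. The plus strand was higher at 74 members and the minus strand at 94, so that 44.0% were higher on the plus strand, against 50.4% of the 10585 other kept pairs with at least 10 points. This share was 22.7% among the 22 members read in all 23 animals and 51.6% without strand depths over 2 times apart. Members that lie close together can share reads. Of the 110 loci formed by members within 200 bp, 49 had the plus strand higher throughout, 54 the minus strand and 7 both. Of the members just inside the threshold, chr8:34786021-34786022 in Dusp8 had a mean of -40.07 points, scaffold JH997482.1 position 6187 had -40.12 and LG10:11082102-11082103 had 40.12. Of the pairs just outside it, chr1:43573001-43573002 in Ccdc85c had 39.67, scaffold JH996539.1 position 507757 had 39.95 and scaffold AHZW01184373.1 position 125 had -39.95.

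**Figure D1:**
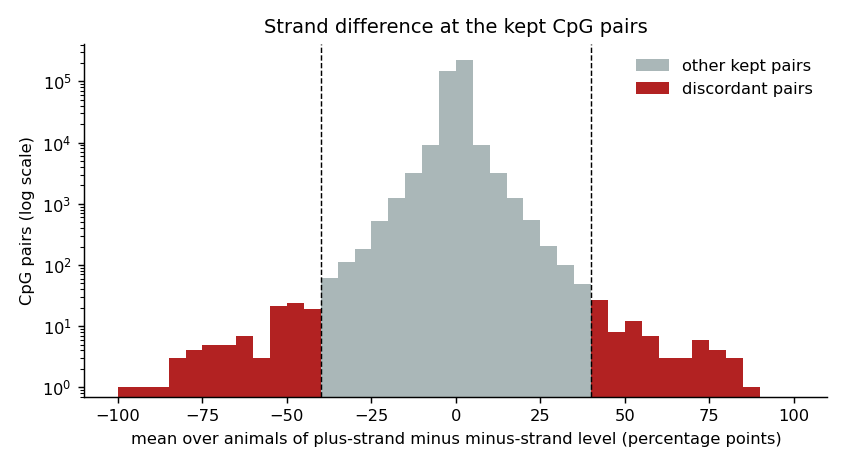
Number of kept CpG pairs (log scale) by the mean over animals of the plus-strand minus the minus-strand level, in bins of percentage points. Grey bars are other kept pairs, red bars the 168 strand-discordant pairs beyond the dashed lines at 40 points, and the counts fall off on both sides of 0.

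Most members were not fully methylated on 1 strand and bare on the other. The higher strand had a mean level with a median of 79.7% over the members (interquartile range 64.4% to 91.3%), and the lower strand one of 20.7% (10.2% to 35.2%). Only 5 of the 168 had a higher strand of at least 90% and a lower strand of at most 10%, and 21 passed 80% and 20%. The lower strand had no methylated read in any animal that counted at 6 members. In single animals, the higher strand was at or above 80% with the other at or below 20% in 762 of 2817 values, or 27.1%. A strand between 20% and 80% was present in 65.5% of the values, both strands were at least 80% in 4.33%, both at most 20% in 3.12%, and the fully reversed state occurred in 0. A pair can reach a mean difference of 40 points only where the mean level of both strands lies between 20% and 80%, which held for 22224 kept pairs. Among these intermediate pairs, the non-members had the fully split state in 3.37% of their values and the reversed one in 1.20%. These shares describe the selection and were not tested.

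**Figure D2:**
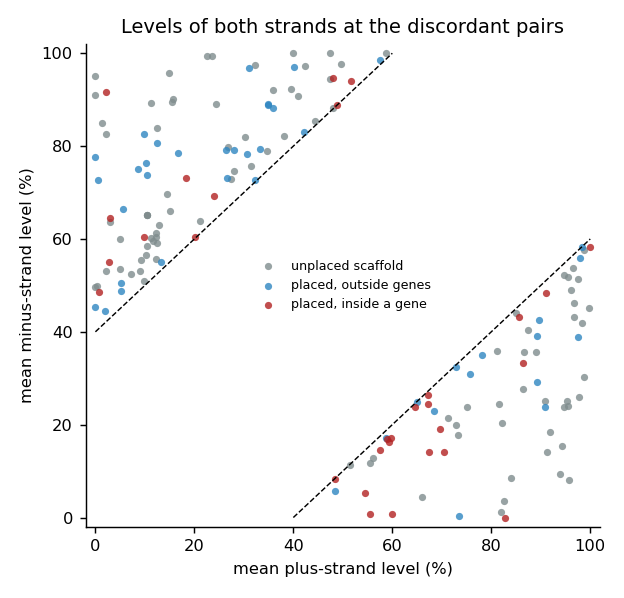
Mean minus-strand level against mean plus-strand level (both in %) of the 168 strand-discordant pairs, coloured by location. Dashed lines mark a difference of 40 points, and 5 pairs lie in the corners, with at least 90% on one strand and at most 10% on the other.

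The direction of the difference was shared by all counted animals at 62 of the 168 members. The SD over animals ranged from 6.72 to 52.8 points with a median of 29.8, against 35.5 at the intermediate non-members. Every counted animal reached 40 points at 7 members, and the median member had 68.4% of its animals past 40 points in the shared direction. At 9 members an animal was reversed by 40 points or more. Of the 168 members, 22 were read in all 23 animals and 23 in the minimum of 12.

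Animals with 5 to 9 reads on the shallower strand did not enter the choice of members and give a further look at them. Such values, 334 in all, existed for 73.8% of the members. The mean over these animals had the direction of the chosen animals at 82.3% of the members with such values, the opposite one at 16 members and was 0 at 6. It had a median of 39.6 points (interquartile range 16.8 to 67.1), against 52.5 points for the same members in the animals that chose them, and 62 members reached 40 points. At 17727 intermediate non-members measured in the same way, the median was 0 points and 13.4% reached 40 points. Members that lie close together can share reads, so these values are not all independent.

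The number of members read and the mean size of the difference overlapped among the groups. An animal had counted values at 91 to 152 members. With differences signed so that the higher strand of the member comes first, the mean over members was 52.8 ± 3.86 points (SD, n = 6) in the “Attacker” group and 54.6 ± 5.70 points (SD, n = 6) in the “Parental” group. It was 56.4 ± 4.22 points (SD, n = 5) in the “Father” group and 55.5 ± 3.09 points (SD, n = 6) in the “Mother” group. The share of an animal's members past 40 points ranged from 55.9% to 73.2% in “Attacker”, 51.3% to 81.2% in “Parental”, 67.2% to 77.2% in “Father” and 69.5% to 77.6% in “Mother” voles, so that the groups overlapped. Because the members were selected on the mean over all of these animals, no test was made of these means. “Attacker” replicate 6 had the lowest mean, 45.4 points, against 52.1 to 55.7 in the other 5 of its group, and without it 170 pairs passed the rule, of which 154 were among the 168. “Parental” replicate 1 was close to it, with 45.6 points.

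Read depth was far less even between the strands of members than between those of other pairs. With 1 read added to each depth, the median depth of the deeper strand was 2.61 times that of the shallower one at the median member, against 1.42 times at other kept pairs and 1.55 times at the intermediate ones. Strands more than 4 times apart in depth made up 61 members (36.3%) and 3.07% of the other kept pairs. Per 10000 kept pairs, there were 1.96 members where the ratio was at most 2, 6.62 where it was between 2 and 4, and 49.9 where it was over 4. The higher strand was the deeper one at 83 members and the shallower one at 85, and among the 61 uneven members the split was 31 to 30. A deeper strand with a median over 1000 reads was found at 28 of the 168 members and at 166 of the 396505 others (0.0419%). Of these 28, 10 lay in 1 locus of scaffold JH996676.1 and 6 in 1 locus of JH996631.1. Members that lie close together can share reads, so the counts of this paragraph are not all independent. The shallower strand had a median of 19 reads at the median member and of 32 at the other kept pairs. It was under 20 reads at 87 of the 168 members and at 78887 of all 396673 kept pairs. The part of depth in the strand differences was not tested.

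**Figure D3:**
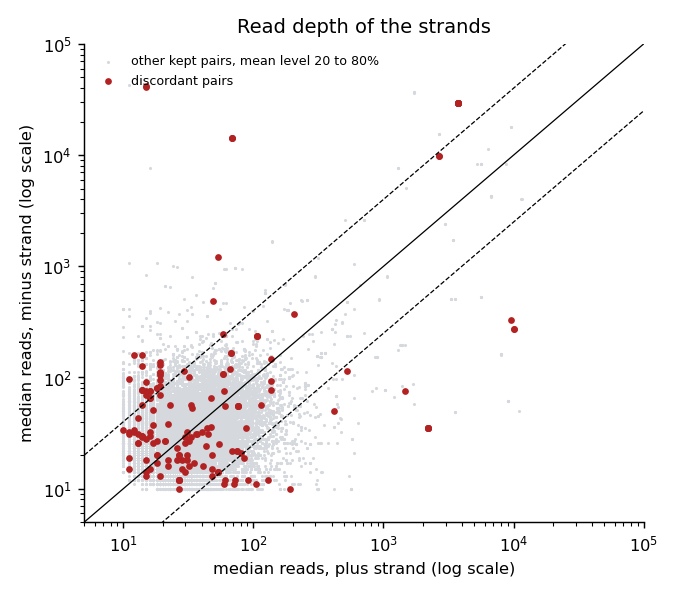
Median reads of the minus strand against the plus strand (both log scale) for the 168 strand-discordant pairs (red) and the other kept pairs with a mean level of 20 to 80% (grey). The solid line marks equal depth and the dashed lines a ratio of 4, beyond which red points lie on both sides.

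The members were spread over 41 unplaced scaffolds and 23 chromosomes or linkage groups (LG) of the assembly. Unplaced scaffolds held 96 of the 168 (57.1%), against 26.6% of other kept pairs and 29.4% of the intermediate ones. This came to 9.09 members per 10000 pairs on scaffolds and 2.47 on placed sequences. Of the 110 loci formed by members within 200 bp, 52 lay on unplaced scaffolds and 58 on placed sequences. Of the 72 placed members, 30 (41.7%) lay inside the span of a gene of MicOch1.0, against 68.3% of other placed pairs and 56.0% of the intermediate ones. The remaining 42 lay outside genes, with a median distance of 24245.5 bp to the nearest gene and 12 within 10 kb. The 33 kept pairs of the mitochondrial DNA held 0 members. The gene table used gives spans but neither exons nor strands and has no coordinates on scaffolds, so exon, intron and promoter were not analysed here, nor were the MspI sites or the bases of each pair.

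Members often lay side by side. Joined where they lay within 200 bp, the 168 formed 110 loci, of which 88 had 1 member and 22 had 2 to 10, with 80 members in all. Of 54 neighbouring members within 100 bp, 47 had the same strand higher. The 15 members of scaffold JH996631.1 were 11.4% of its kept pairs, and the 13 of JH996676.1 were 36.1%. Such neighbours can be covered by the same reads and then count as few independent sites.

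The locus with the most members lay on scaffold JH996676.1, between positions 69040 and 69110. All 10 of its pairs were read in all 23 animals, had a mean minus-strand level between 50.9% and 66.0%, a plus-strand level between 8.91% and 15.1%, and an SD of the difference between 6.72 and 7.81 points. Over its pairs and animals the difference ranged from 25.7 to 60.7 points, always with the minus strand higher. The depth was among the highest, with median reads of 3753 to 3756 on the plus strand and 29581 to 29625 on the minus strand. At position 69056, the difference ran from 29.5 to 54.3 points in “Attacker” voles (median 52.2), 36.3 to 59.3 in “Parental” (50.6), 45.0 to 59.7 in “Father” (58.1) and 50.4 to 55.4 in “Mother” voles (53.2). The groups overlapped, and the lowest value belonged to an “Attacker” animal.

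A second kind of locus switched direction within few bases. On scaffold JH997104.1, 5 members lay between positions 8842 and 8879, of which 2 were higher on the plus strand and 3 on the minus strand, with mean differences of 60.8 to 83.8 points in size in 19 animals. Median reads there were 60 to 76 on the plus strand and 55 on the minus strand. Of the 22 loci with several members, 7 held both directions. By contrast, 5 members of chromosome 18 between 18493845 and 18493909 all had the minus strand higher, by 63.3 to 72.9 points, with a plus strand at 8.65% to 12.5% and a minus strand at 73.7% to 82.7%.

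The difference largest in size belonged to scaffold JH996476.1, position 2772256, with -95.0 points. In its 14 animals the plus strand had 0 methylated of 377 reads, which allows a level of up to 0.796%, and the minus strand 695 of 751, with median reads of 14 and 30. These animals had 69.3 to 100 points in size, and 1 further animal with 5 to 9 reads had 21.2. Such limits, and the intervals given for single animals, cover counting error only, because reads copied by PCR from 1 molecule could not be told from others.

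Among the members read in all 23 animals, scaffold JH996720.1 position 55671 had the largest difference, 87.7 ± 14.7 points (SD, n = 23). The plus strand was at 100% in all 5 “Father” and all 6 “Mother” animals, where the minus strand ran from 4.96% to 11.6% and from 5.76% to 12.3%. The plus strand ran from 72.9% to 100% in “Attacker” animals and from 33.3% to 100% in “Parental” animals. The value of 33.3% came from 6 of 18 reads of 1 animal (exact 95% interval 13.3% to 59.0%). Median reads were 53 on the plus and 1225 on the minus strand.

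A placed member with even depth was chr10:19237353-19237354, 12225 bp from Mpdz, a scaffold protein with many PDZ domains. The minus strand was the higher one in all 23 animals, by 72.3 ± 22.4 points (SD, n = 23). The plus strand was at 0% in 22 of them, and its median was 59 reads against 75 on the minus strand. The difference ran from 56.9 to 100 points in “Attacker” voles (median 76.7), 46.5 to 100 in “Parental” (89.4), 22.4 to 88.6 in “Father” (73.9) and 38.6 to 100 in “Mother” voles (59.9). The groups overlapped over most of this range.

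Neighbours that are not members lie under 40 points by the rule, and their levels are given as a description. Kept non-members lay within 100 bp of 115 members, and their strand differences were averaged for each member in 2 ways. The mean of their sizes, whatever their direction, had a median of 12.8 points. The mean of the differences signed by the direction of the member had a median of 2.27 points. This signed mean had the member's direction at 73 of 115. At 73 members at least 1 neighbour with under 10 points was present. The mean level of such neighbours had a median of 78.1%. It was nearer to that of the member's higher strand at 53 members and nearer to the lower one at 20. It lay between the levels of both strands at 43, above both at 22 and below both at 8. The other 53 members had no kept neighbour within 100 bp.

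Inside genes, 25 members fell in 21 genes with a symbol and 5 in genes known by a locus number only. No member inside a gene with a symbol was read in all 23 animals. The genes with the most members were Nr2e1, Ran and Adamts17, and the others are named after their values were seen.

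Nr2e1 encodes TLX, an orphan nuclear receptor that keeps neural stem cells of the adult brain, including those of the DG, in their undifferentiated state. It held 3 members at LG9:28275952-28275953, LG9:28275958-28275959 and LG9:28275967-28275968, in a gene span of 21550 bp from 28259800 to 28281349. The plus strand was higher at each, by 43.0 ± 35.3, 40.8 ± 29.7 and 40.1 ± 25.4 points (SD, n = 15), with levels of 57.5%, 64.6% and 48.5% against 14.4%, 23.8% and 8.35%. The strands had median depths of 53 and 14 reads.

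At the first Nr2e1 pair, the differences were 86.4, 11.7 and -33.9 points in the 3 “Attacker” voles and 38.3, 67.6, 47.9 and 56.3 in the 4 “Parental” voles. They were 78.3, 1.89 and 58.2 points in the 3 “Father” voles and -2.75, 57.1, 51.8, 35.8 and 90.6 in the 5 “Mother” voles. All groups overlapped, and the plus strand was lower in 1 “Attacker” and 1 “Mother” animal. In 6 animals with 5 to 9 reads, the means over animals at these pairs were 2.83, -11.5 and 2.56 points, so that the difference of the chosen animals was not seen there.

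Ran encodes the small GTPase that drives transport between nucleus and cytoplasm. Its 3 members lay at chr2:19115678-19115679, chr2:19115708-19115709 and chr2:19115718-19115719, 726 to 766 bp from the lower end of a gene span of 4651 bp. The plus strand was higher by 42.9 ± 25.0 points (SD, n = 14), 59.0 ± 28.0 points (SD, n = 15) and 54.8 ± 28.3 points (SD, n = 15). At the second pair the minus strand was at 0.821% on average and the plus strand at 59.9%. There the differences were 8, 88.1 and 64.7 points in “Attacker”, 85.1, 0, 75.4, 39.3 and 73.6 in “Parental”, 59.1, 26.4, 90 and 64.9 in “Father”, and 69.2, 65.9 and 75.7 in “Mother” voles. The low values of 0 and 8 points came from animals in which both strands were nearly unmethylated, and no animal was reversed. In animals with 5 to 9 reads the mean was 77.9 points at the second and 78.0 at the third pair, from 2 animals, and -20.9 at the first, from 1.

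Adamts17, which encodes a secreted metalloprotease, held 2 members at chr22:26028328-26028329 and chr22:26028355-26028356. The plus strand was higher by 43.1 ± 47.6 and 50.5 ± 39.4 points (SD, n = 16). At the second pair the difference ran from 21.6 to 100 points in 4 “Attacker”, 3.19 to 100 in 4 “Parental”, -39.3 to 83.0 in 4 “Father” and 21.3 to 100 in 4 “Mother” voles. In 4 animals with 5 to 9 reads the mean was -38.5 and -17.9 points, opposite to the chosen animals.

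The genic member with the largest difference lay at chr6:7366495-7366496, where the spans of Brinp2, a neuronal protein, and Dpp10, an auxiliary subunit of Kv4 potassium channels, overlap. The minus strand was higher by 89.5 ± 28.8 points (SD, n = 12), at 91.7% against 2.21%. It was at 100% in 11 of the 12 animals and at 0% in 1 “Attacker” animal, with 0 of 12 reads (exact 95% interval 0% to 26.5%). The plus strand had a median of 91 reads and the minus strand of 12.

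Rpl9 encodes a protein of the large ribosomal subunit. Its member at LG1:22167810-22167811 had a plus strand higher by 82.8 ± 14.9 points (SD, n = 15). The minus strand had 0 methylated of 1447 reads, which allows up to 0.207%, and the plus strand 323 of 392. The differences were 90, 87.0, 85.7 and 88.6 points in “Attacker”, 100, 78.9, 90, 91.7 and 80 in “Parental”, 82.6, 76.7 and 82.1 in “Father”, and 70.6, 37.5 and 100 in “Mother” voles. They were positive in all 15 animals, and the lowest was a “Mother” animal. In 6 animals with 5 to 9 reads the mean was 85.4 points. Ribosomal protein genes have processed copies across mammalian genomes, and the placement of reads among copies was not tested.

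Ccn2, which encodes a secreted matricellular protein, had its member at LG4:2915277-2915278 with a plus strand higher by 53.4 ± 33.4 points (SD, n = 17). The differences were 88.2, 63.1 and 78.0 points in “Attacker”, 45.5, 52.2, 66.4 and 100 in “Parental”, and 3.76, 76.4, 22.6 and 2.71 in “Father” voles. The 6 “Mother” voles ran from 6.52 to 100 points. The “Father” values overlapped those of each other group, with the animal at 76.4 points inside all 3 ranges and that at 22.6 inside the “Mother” range.

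Genes of synapses and axon guidance were among the others. Ddn, which encodes the postsynaptic protein dendrin, had a plus strand higher by 56.2 ± 43.2 points (SD, n = 12), and Dlg2, which encodes the synaptic scaffold PSD-93, a minus strand higher by 54.9 ± 49.1 points (SD, n = 12). The guidance genes Sema5b and Slit3 had a higher plus strand, by 42.7 ± 40.7 (SD, n = 12) and 41.0 ± 35.9 points (SD, n = 13). At each of these 4, at least 1 animal had the opposite direction. In the matrix gene Col5a1 the plus strand was higher by 49.2 ± 18.3 points (SD, n = 12), with all animals between 18.6 and 85.0 points. Kmt2b, an H3K4 methyltransferase gene, had a minus strand higher by 46.5 ± 36.7 points (SD, n = 15), and Clec16a, an autophagy gene, by 40.2 ± 40.9 points (SD, n = 22). In animals with 5 to 9 reads, which existed for 24 of the 25 members in genes with a symbol, the mean had the direction of the chosen animals at 16 and the opposite one at 8. It was -44.4 points in Slit3, -24.5 in Hpn, -21.4 in Olfml2a, -2.97 in Rhbdf1 and 0.788 in Dlg2. The members in Mei1, Galnt10, Hpn, Chst9, Olfml2a, Rhbdf1 and Dusp8 lay between 40.1 and 50.6 points in size.

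**Figure D4:**
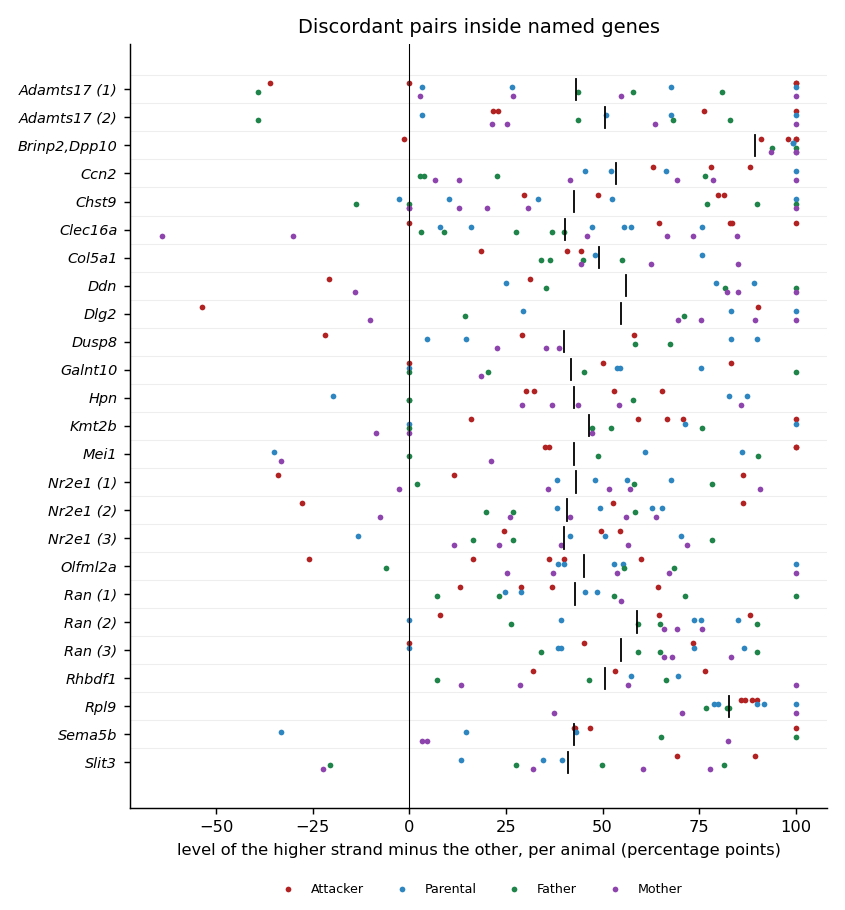
Level of the higher strand minus that of the other strand (percentage points) in each animal, for the members inside genes with a symbol, numbered along the chromosome where a gene has several. Points are animals coloured by group and black ticks the mean, and only Rpl9 and Brinp2,Dpp10 have nearly all animals beyond 70 points.

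The kept pairs of 6 gene lists, which do not include Nr2e1, held 0 members. Members made up 0.0424% of all kept pairs, so that a count of 0 in lists of this size is near that share and is no result about these genes. In 10 genes for the maintenance and removal of methylation with kept pairs, the 245 pairs had a median difference of 0.505 points in size, against 0.667 over all kept pairs. The largest was 31.8 ± 35.6 points (SD, n = 15), at chr21:28621297-28621298 in Tet2, which encodes an enzyme that oxidizes methylcytosine. The 163 pairs of CTCF and cohesin genes had a median of 0.521 points and reached 7.26 points in size, in Wapl. The 322 pairs of granule cell and neurogenesis genes had a median of 0.785 points and reached 29.4 points in size, in Dsp, a marker of granule cells. The 362 pairs of genes imprinted in mouse had a median of 1.29 points and reached 25.3 in size, in Peg10, the 968 pairs of Wnt genes had 0.757 and 26.2, in Wnt7b, and the 77 pairs of social peptide genes had 1.53 and 24.6, in Avpr1b, a vasopressin receptor gene.

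Whether the strand difference of the members varied with behaviour, parenthood or sex was asked with limma, fitted over all kept pairs with at least 3 animals in each of the groups compared. No member passed an adjusted p of 0.05 with group means more than 15 points apart in any comparison. The number of members tested was 116 in “Father” vs “Mother” and up to 142 in the comparisons among males, where “Attacker” vs “Parental” had the most, and 0 were called in each. The share called among all 363162 to 373099 tested pairs was likewise 0% in each comparison. The 3 comparisons of males share their groups, and “Father” animals enter 3 of the 4.

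At an unadjusted limma p under 0.05 there were 0, 2, 2 and 2 members when “Attacker” was set against “Parental”, “Attacker” against “Father”, “Parental” against “Father” and “Father” against “Mother”, in this order here and in the values that follow, beside 14052, 14936, 14563 and 15633 of all tested pairs. There were 116 to 142 tested members and 363162 to 373099 tested pairs. In this fit, the share under this p was thus smaller among members than among all tested pairs in each comparison. That order did not hold in all alternatives of the fit. The lowest Benjamini-Hochberg adjusted p of a member was 0.907, 0.918, 0.915 and 0.906. The group means of a member differed by a median of 12.7, 13.4, 8.09 and 10.1 points in size, against 15.3, 16.1, 15.6 and 15.8 at intermediate non-members and 1.09 to 1.19 over all tested pairs. The 95% interval of a member's group difference reached a median of 42.1, 39.5, 42.4 and 40.2 points to either side. These intervals are not adjusted for the number of pairs tested, whereas a call needed an adjusted p. Differences below that size were mostly not detectable with these animals. Larger ones could also go uncalled, as a difference of 70.4 points in “Father” vs “Mother” did.

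**Figure D5:**
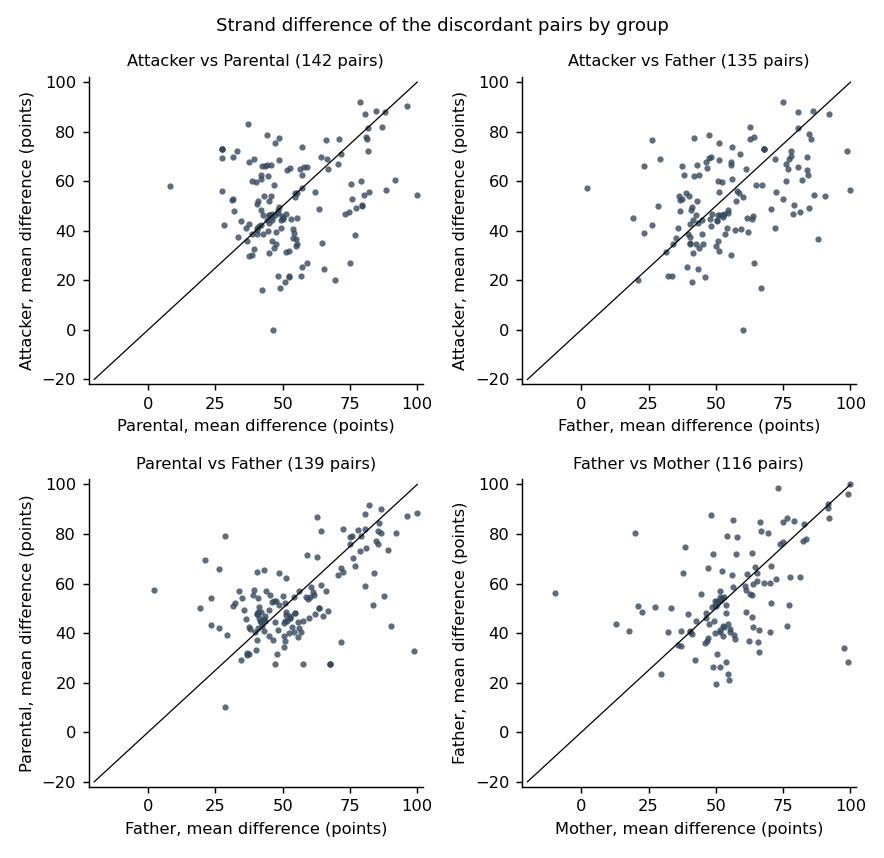
Mean strand difference of each tested member in the first group against the second group (percentage points, signed so that the member's higher strand comes first) for the 4 comparisons. Points are members and the line marks equality, around which they scatter on both sides, with 116 to 142 members each.

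The members with an unadjusted p under 0.05 are given as a description, as their share in the fit reported was below that of all tested pairs. The rule chose members on the mean over these same animals, so a group with high values helps a pair to pass. Their p-values and intervals are thus no independent support for a group difference. They rested on 3 to 5 animals in a group. Those on placed sequences were outside genes. At LG5:6871930-6871931, the minus strand was higher by 46.3, 39.3 and 0 points in 3 “Father” voles and by 100, 100, 100 and 95.7 in 4 “Mother” voles, without overlap. The limma p was 0.00133 before and 0.906 after Benjamini-Hochberg adjustment, and the group means were 70.4 points apart (95% interval 41.8 to 98.9). The animals of the virgin groups had 0 to 41.2 points there. The pair passed the rule with a mean of 41.1 points in size over 13 animals, to which the “Mother” values gave the most. On scaffold JH997972.1, position 3015, the plus strand was higher by 40.9 to 80.6 points in 5 “Father” voles and by 0, 7.69 and -36.8 in 3 “Mother” voles, a difference of 65.9 points (95% interval 35.2 to 96.6), with a limma p of 0.00484 before and 0.906 after adjustment.

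At chr1:17927797-17927798, 6266 bp from Zfp36l1, an mRNA decay gene, the plus strand was at 91.2% to 100% in all 12 animals. The difference was 100, 0, 33.3 and 95.6 points in 4 “Attacker” voles, 25, 47.1 and 100 in 3 “Parental” voles and -8.84, 0, 17.7 and -0.637 in 4 “Father” voles, so that “Parental” and “Father” voles did not overlap. The “Attacker” mean was 55.2 points above that of “Father” voles (95% interval 0.952 to 109) with a limma p of 0.0113, and the “Parental” mean 55.3 points above it (-3.27 to 114) with 0.0127. The adjusted limma p was 0.918 and 0.915. Intervals are on the scale of points and p-values on an arcsine scale, which is why they can differ at the threshold.

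At chr10:45754293-45754294, the “Attacker” and “Father” means differed by 59.9 points, with a limma p of 0.0429 before and 0.918 after Benjamini-Hochberg adjustment. At chr5:72548485-72548486, “Father” voles had 94.5, 100, 100 and 100 points and “Parental” voles -45.5, 31.1, 100, 91.7 and -12.7, and the groups overlapped. The limma p there was 0.0270 before and 0.915 after adjustment. Among members inside genes, the group difference largest in size was that of Ccn2 in “Attacker” vs “Father”, 50.1 points (95% interval -0.563 to 100.7), with a limma p of 0.142 before and 0.918 after Benjamini-Hochberg adjustment.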

How the data were processed

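RRBS libraries were made by the authors from MspI-digested DG DNA, sequenced single-ended, trimmed with Trim Galore in its RRBS mode, which removes bases filled in at the cut ends, and aligned with Bismark. The authors deposited, for each of 23 animals, unnormalized counts per cytosine position of all reads and of those called methylated. The strand was not listed and was taken from the pairing of positions. In a run of positions with a missing cytosine a pair could join different CpGs, and 1 member lay in a run of odd length. The deposited counts were used without further filtering other than 10 reads per strand and animal. Coordinates refer to MicOch1.0, with genes from a RefSeq table. The members and gene lists were chosen with earlier results of these data known.

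For the group comparisons, the strand difference of asin(2p - 1), with p the level after adding 0.1 methylated reads and 0.2 reads, was fitted with limma 3.58.1 (R 4.3.3) in 1 fit of 4 group means, with a prior variance that follows the mean level. This is a form of the group design of the study for 1 value per animal. P-values were two-sided and adjusted by Benjamini-Hochberg over all tested pairs. A call needed an adjusted p under 0.05 and group means over 15 points apart. The 95% intervals came from the same fit on percentage points. Single read shares have exact 95% binomial intervals, and a count of 0 is limited by 3 counts. The fit was run on counts simulated at the real read depths. The spread between animals was set there and not taken from the members, so that run does not show what could be detected at members. Genes were named by the number of members, and pairs by their distance from the threshold. No called member and no promoter table existed for the other parts of that rule. Alternatives covered the read and animal minimum, the threshold, pooling, medians, run length, the scale and samples of the fit, a replicate block and each animal left out. Depth and scaffold filters were added after seeing the data. Python 3.11.15, pandas 2.3.3, scipy 1.17.1 and matplotlib 3.10.9 were used.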

Additional observations from a re-analysis of the deposited data

Results flagged for a closer look

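In groups with 4 to 10 animals read, a sample was set apart where its gap to the nearest other one was large against the range of the group (Dixon's test at 95%). Chance gives this in about 1 in 20 groups of normally distributed values. The measures here are bounded and need not follow that distribution, so the number set apart cannot be compared with that rate. Of 69 groups tested, 8 had such a sample. “Attacker” replicate 6 had the lowest mean difference over members, 45.4 points, with the other 5 animals of its group at 52.1 to 55.7. It also had the largest share of members with the opposite direction, 9.32% against 4.55% to 6.11%.

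Single members set 1 animal apart from its group 6 times. At the Sema5b pair, “Attacker” replicate 1 had 100 points, with 15 of 15 plus-strand reads methylated and 0 of 11 on the minus strand, against 42.5 to 46.7. At the Brinp2 and Dpp10 pair, “Attacker” replicate 2 had -1.49 points against 91.0 to 100. At the Olfml2a pair, “Parental” replicate 4 had 100 points against 38.5 to 55.3, and at the Chst9 pair, “Mother” replicate 1 had 100 points against 0 to 30.8. At the Ddn pair, “Mother” replicate 2 had -14.1 points against 82.3 to 100, with 0 of 27 plus-strand reads methylated. At the Dlg2 pair, “Mother” replicate 5 had -10.3 points against 69.6 to 100, with 2 of 20 minus-strand reads methylated.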

How the results depend on the processing

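The number of members moved with the depth asked for and with the threshold. It was 168 as reported, 73 with at least 20 reads per strand (64 of them among the 168), 318 with at least 5 (142 shared), 22 where all 23 animals were needed, 271 from the median over animals (151 shared), 490 at a threshold of 30 points and 90 at 50 points. Pooled reads gave 181 members (145 shared) and runs of exactly 2 positions 153. Chosen after seeing the data, leaving out unplaced scaffolds gave 72, leaving out strand depths over 2 times apart 62 (a ratio of 4, tried first, left out 61 of the 168, and 51.4% of the rest were higher on the plus strand), and leaving out pairs with a deeper strand over 1000 reads 140. Leaving out each animal in turn gave 153 to 170 members, of which 143 to 157 were among the 168. The share with a higher plus strand was 44.0% as reported and ran from 39.2% to 46.6% with an animal left out, 37.0% with 20 reads, 46.2% with 5 reads, 22.7% with all 23 animals, 43.1% pooled, 42.8% by medians, 43.8% in runs of 2 positions, 45.5% and 43.3% at 30 and 50 points, and 47.2%, 51.6% and 49.3% without scaffolds, uneven depths and deep pairs.

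No alternative of the limma fit called a member in any of the 4 comparisons, with 0 to 4, 1 to 8, 0 to 5 and 1 to 7 members at an unadjusted p under 0.05. The share of members under this p exceeded that of all tested pairs without the trend of the prior variance and on the scale of points. This held in each comparison except “Attacker” vs “Parental”. In “Father” vs “Mother” without the trend, 7 of 116 members were under it, beside 13347 of 367520 tested pairs. Among all tested pairs, at most 0, 2, 1 and 7 were called. The replicate block called 0 members. Deviations of the strand difference in same-numbered animals of different groups correlated at -0.0765 to 0.0539 over 2167 pairs read in all animals. None of the 33 pairings was above 0.1. A level shared by both strands cancels in this difference, so whether replicate numbers paired the animals cannot be told from it.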
